A study of Mus musculus with 3 samples.

Results

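The genes described here are 10 that make or remove reactive oxygen species, out of 32285 genes in the count tables. They were chosen by name: the superoxide dismutases Sod1, Sod2 and Sod3, the oxidase subunits Cybb and Ncf1, and the antioxidant enzymes Nqo1, Gpx3, Prdx1, Txnrd1 and Srxn1. Superoxide is made on purpose by the phagocyte NADPH oxidase, a membrane core of Cybb (gp91phox) and Cyba (p22phox) that becomes active when partners such as Ncf1 (p47phox), Ncf4 (p40phox) and Rac2 join it from the cytosol. Dismutases turn superoxide into hydrogen peroxide in the cytosol (Sod1), the mitochondrial matrix (Sod2) and the space outside the cell (Sod3). Peroxide is then removed by glutathione peroxidases such as the secreted Gpx3 and by peroxiredoxins such as Prdx1, which Srxn1 repairs after overoxidation and which the thioredoxin system, with thioredoxin reductase Txnrd1, keeps reduced. Nqo1 is a quinone reductase and a common reporter of the transcription factor NRF2.

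Single cells came from hind paws of mice given serum from arthritic K/BxN mice, whose antibodies inflame the joints of the recipient (K/BxN serum transfer arthritis). The 3 libraries were CD45- sorted cells at day 0, labelled as steady state (stromal day 0), CD45- sorted cells at day 5 after 200 µl of serum given into the peritoneum (stromal day 5), and CD45+CD11b+Ly6G- sorted cells at day 9 after the same dose (myeloid day 9). Skin, muscles and tendons had been removed before digestion with collagenase IV and DNase. Each group is 1 library, and the labels used here give neither strain, age and sex nor the number of mice behind a library. A difference between libraries therefore has no replicate check, and no p-value is given. The day and the library cannot be told apart, and neither can the myeloid sort and day 9.

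After filtering and doublet removal, 6894, 10054 and 5545 cells were used, with median depths of 9684, 9140 and 6369 UMIs (unique molecular identifiers, each counting 1 captured RNA). The libraries shared 32, 22 and 35 cell barcodes in pairs (day 0 with day 5, day 0 with day 9, day 5 with day 9). Clusters were named from marker genes. Fibroblasts numbered 5146 at day 0 and 8071 at day 5, tenocytes 1128 and 1276, osteoblasts 502 and 585, and blood endothelial cells 91 and 41. The defining markers of tenocytes and osteoblasts fit these names. The 7 tenocyte markers summed to 16366 and 16234 CPM (counts scaled to an equal UMI total) in tenocytes against 4224 and 4027 in fibroblasts. In osteoblasts they summed to 8390 and 7447 CPM. The 8 osteoblast markers summed to 28902 and 26184 in osteoblasts against 217 and 150 in fibroblasts. The 7 fibroblast markers did not single out fibroblasts. They summed to 42625 and 39922 CPM there, 59943 and 58323 in tenocytes and 44103 and 39306 in osteoblasts. Fibroblast was the default name where no other list qualified. A level below is the CPM of UMIs summed over the cells of a class, with a 95% interval that covers counting error only. These 3′ counts are not scaled by gene length and are compared within a gene, not between genes. Where genes are counted, 1.5-fold marks a size of difference only, since nothing was tested.

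Antioxidant genes of this kind are often described as targets of NRF2, which binds the antioxidant response element, written here as TGACNNNGC (GCNNNGTCA on the other strand). The 250 bases before the RefSeq start sites (GRCm38.p6) were searched for these letters on both strands. Of the 10 genes, 9 had an entry and 3 held a match, while 11.5% of the 27025 genes with a window and 10.2% of all 32851 windows did. The matching windows are shown so that the letters can be read in place. Sod2 and Srxn1, which peaked in the same macrophage cluster as Prdx1 and Txnrd1, held no match in these 250 bases. Sod1, which did not peak there, held one. Other stretches and variants of these letters were not searched, and a link between matches and levels was not tested. Capitals mark the match, which is on the other strand in each case. It starts 56 bases before the start site in Sod1 (chr16:90220512-90220761, plus strand), 133 bases before it in Prdx1 (chr4:116685349-116685598, plus strand) and 92 bases before the second of 3 listed starts in Txnrd1 (chr10:82858956-82859205, plus strand).
Sod1: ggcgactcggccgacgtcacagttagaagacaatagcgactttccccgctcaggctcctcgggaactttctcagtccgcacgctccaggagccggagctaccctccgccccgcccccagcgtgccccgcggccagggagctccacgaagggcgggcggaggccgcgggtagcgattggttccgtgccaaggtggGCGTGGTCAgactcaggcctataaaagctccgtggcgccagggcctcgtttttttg
Prdx1: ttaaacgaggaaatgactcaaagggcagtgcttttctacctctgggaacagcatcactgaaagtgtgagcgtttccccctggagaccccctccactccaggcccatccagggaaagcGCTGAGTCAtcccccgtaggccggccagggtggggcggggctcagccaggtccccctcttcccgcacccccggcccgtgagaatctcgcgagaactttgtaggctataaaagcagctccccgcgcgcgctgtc
Txnrd1: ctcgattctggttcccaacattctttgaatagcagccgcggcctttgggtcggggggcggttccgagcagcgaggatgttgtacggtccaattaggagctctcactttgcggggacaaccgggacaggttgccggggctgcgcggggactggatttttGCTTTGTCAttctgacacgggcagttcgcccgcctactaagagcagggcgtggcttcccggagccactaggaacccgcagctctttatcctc
A match to these letters is a description and not a binding site, and no binding was measured.

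In fibroblasts, the mitochondrial dismutase Sod2 (chr17:13006846-13040063, plus strand, mm10) was the 1 gene of 8 with enough UMIs that differed by at least 1.5-fold between the days. It stood at 57.2 CPM at day 0 (95% interval 55.2 to 59.3, 3060 UMIs) and 189 CPM at day 5 (186 to 192, 16292 UMIs), a ratio of 3.30 (3.17 to 3.43). The extracellular dismutase Sod3 (chr5:52363791-52371418, plus strand) was at 282 and 381 CPM, a ratio of 1.35 (1.32 to 1.37), and the cytosolic dismutase Sod1 (chr16:90220754-90226329, plus strand) at 148 and 143 CPM, a ratio of 0.96 (0.94 to 0.99). So the mitochondrial form differed most between the days and the cytosolic form least. Of the 8 genes with at least 20 UMIs over both libraries, 1 was higher and 0 were lower by this size, where 10.3% of the 15431 genes measured were higher and 7.68% lower. Their median log2 ratio was 0.10, against 0.01 over all genes. The share of fibroblasts with a Sod2 UMI was 39.5% at day 0 and 50.5% at day 5. With each cell thinned to 2000 UMIs these shares were 10.1% and 20.2%.

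The peroxide-removing genes of fibroblasts stayed within 1.5-fold between the days. Gpx3 (chr11:54902453-54910377, plus strand) was at 3898 and 3805 CPM, a ratio of 0.98. Prdx1 (chr4:116685544-116700822, plus strand) was at 410 and 463 CPM, a ratio of 1.13 (1.11 to 1.15). The 2 enzymes that serve the peroxiredoxins were close to level: Txnrd1 was at 35.03 and 36.8 CPM (ratio 1.05, 0.99 to 1.11) and Srxn1 at 25.6 and 22.4 CPM (ratio 0.87, 0.81 to 0.94). Txnrd1 (chr10:82833951-82897712, plus strand) overlaps Eid3 on the same strand, so a few of its UMIs may be split between them, and Srxn1 lies at chr2:152105516-152111376 on the plus strand. Nqo1 (chr8:107388225-107403206, minus strand) was scarce at 7.43 and 8.15 CPM.

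**Figure D1:**
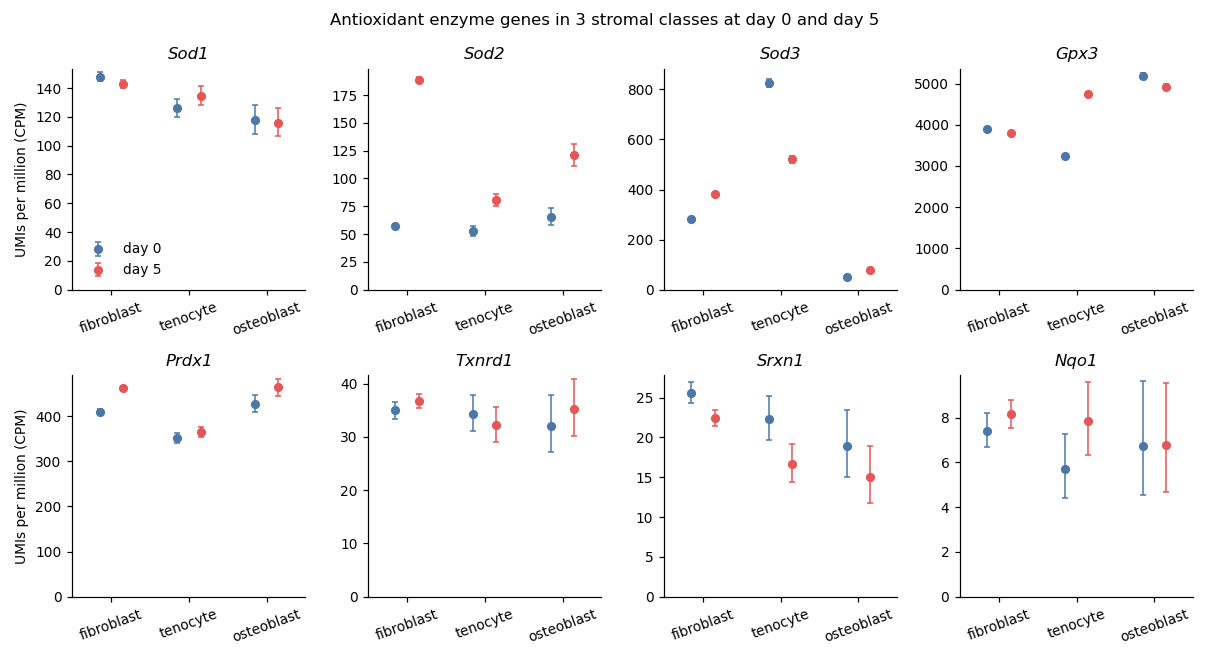
Levels (CPM of summed UMIs) of 8 genes in fibroblasts, tenocytes and osteoblasts, with day 0 in blue and day 5 in red; each point is 1 library and each bar a 95% counting interval. Sod2 is higher at day 5 in all 3 classes, while Sod3 is lower at day 5 in tenocytes (826 against 521 CPM) and higher in fibroblasts (282 against 381 CPM).

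In tenocytes, which make tendon and ligament matrix, Sod3 was 1.59-fold lower at day 5. Its level was 826 CPM (810 to 843) at day 0 and 521 CPM (508 to 534) at day 5, a ratio of 0.63 (0.61 to 0.65), still above the 381 CPM of fibroblasts at that day. The share of tenocytes with a Sod3 UMI was 95.04% and 83.1%, or 73.0% and 51.6% after thinning. Blood endothelial cells, which had little Sod3, gave 8 and 4 UMIs in 2 of 91 and 3 of 41 cells. Sod2 in tenocytes was at 52.8 and 80.5 CPM, a ratio of 1.53 (1.38 to 1.69). Gpx3, the secreted peroxidase, was at 3241 and 4744 CPM, a ratio of 1.46 (1.44 to 1.48).

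Of 8 genes with a ratio in tenocytes, 1 was at least 1.5-fold higher and 1 lower, where 9.56% of 12525 genes were higher and 8.87% lower. Srxn1 was at 22.3 and 16.7 CPM (ratio 0.75, 0.62 to 0.91). Nqo1 had 65 and 92 UMIs, and its ratio of 1.38 had an interval of 0.99 to 1.92. Sod1, Prdx1 and Txnrd1 differed by under 10% from level, with ratios of 1.07, 1.04 and 0.94. The ratios of Sod2, Sod3 and Gpx3 had the same direction in both clusters that make up the tenocytes. In the larger one, cluster 0, the ratios were 1.47 for Sod2, 0.71 for Sod3 and 1.64 for Gpx3, and in cluster 14 they were 1.70, 0.65 and 1.48.

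In osteoblasts, the bone-forming cells, Sod2 was at 65.6 CPM (58.3 to 73.6) at day 0 and 121 CPM (111 to 131) at day 5, a ratio of 1.84 (1.60 to 2.13). Sod3 was low, at 50.1 and 77.4 CPM, with a ratio of 1.54 (1.30 to 1.83). That Sod3 ratio was 1.32 without a low-depth cluster of 59 cells in the day 5 library, in which Sod3 stood at 295 CPM. It was 0.94 when cells were clustered at a lower resolution. Of 9 genes with a ratio, 2 were at least 1.5-fold higher and 0 lower, where 7.89% of 11619 genes were higher and 6.15% lower. Gpx3, at 5192 and 4919 CPM, Prdx1, at 428 and 464 CPM, and Sod1, at 118 and 116 CPM, were within 10% of level. Txnrd1 was at 32.1 and 35.2 CPM, Srxn1 at 18.9 and 15.0 CPM, and Nqo1 at 6.74 and 6.79 CPM.

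In the 91 and 41 blood endothelial cells, Sod2 had 47 and 26 UMIs and Gpx3 23 and 47 UMIs. Leukocyte genes summed to 14.4 CPM there at day 0 and to 4200 CPM at day 5, and their part in these counts was not tested.

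Within fibroblasts the day 5 Sod2 and Sod3 sat largely in 1 sub-cluster, number 8, led by Saa3 (serum amyloid A3), Ptx3 and Ccl2 and made of 31 cells at day 0 and 1558 at day 5. It held 19.3% of day 5 fibroblasts and 28.5% of their UMIs. Against that, it held 71.8% of their Sod2 UMIs, 60.8% of Sod3, 50.02% of Txnrd1, 40.5% of Prdx1 and 39.2% of Srxn1. Its shares of Sod1 (25.8%), Gpx3 (17.9%) and Nqo1 (15.2%) were below its share of all UMIs. The sub-clusters were drawn from the same cells and genes, so these values are a description.

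The level of each gene in sub-cluster 8 at day 5 shows the same split. Sod2 was at 476 CPM there, against 41.7 to 106 CPM in the 10 other sub-clusters at day 5. Sod3 was at 811 CPM against 83.6 to 348 CPM, and Txnrd1 at 64.5 CPM against 20.2 to 42.5 CPM. Prdx1 was at 657 CPM against 331 to 476 CPM. Srxn1 was at 30.8 CPM (28.6 to 33.0) against 9.56 to 28.2 CPM. It was not apart from sub-clusters 9, 6 and 5, whose intervals reached 36.0, 32.6 and 28.7 CPM. In sub-cluster 8, Gpx3 was at 2390 CPM and Nqo1 at 4.35 CPM. Its cells were also deeper, with a median of 13777 UMIs. Outside this sub-cluster, Sod2 was at 57.1 and 74.4 CPM (ratio 1.30, 1.24 to 1.36), so that 0 of the 8 genes with a ratio passed 1.5-fold.

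The ratios of other genes were different too. Without sub-cluster 8, Sod3 had day 0 and day 5 levels of 282 and 209 CPM, a ratio of 0.74 where it had been 1.35 over all fibroblasts. Txnrd1 was at 34.9 and 25.7 CPM and Srxn1 at 25.8 and 19.05 CPM, both with a ratio of 0.74. Gpx3, at 3905 and 4370 CPM, had a ratio of 1.12, and Nqo1, at 7.40 and 9.66 CPM, a ratio of 1.31. Sod3 outside sub-cluster 8 was thus lower at day 5, as it was in tenocytes.

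**Figure D2:**
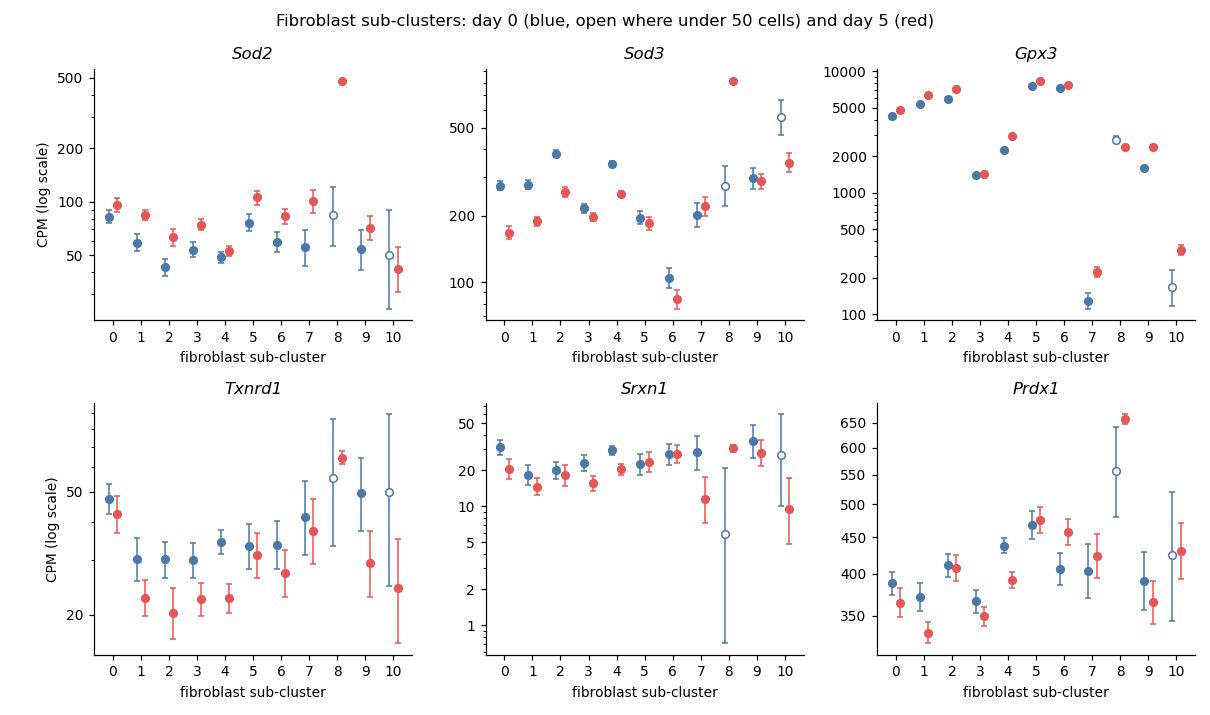
Levels (CPM, log axis) of Sod2, Sod3, Gpx3, Txnrd1, Srxn1 and Prdx1 in the 11 fibroblast sub-clusters at day 0 (blue) and day 5 (red), with 95% counting intervals; open points have under 50 cells at day 0. Sub-cluster 8 has the highest day 5 level of Sod2 (476 CPM) and Sod3 (811 CPM), and Gpx3 is lowest in sub-cluster 7 at both days.

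Ratios were also taken inside each of the 9 sub-clusters with at least 50 cells at both days. Sod2 was higher at day 5 in 9 of 9, with ratios of 1.08 to 1.81, and 7 intervals lay above 1. Sod3 was lower in 8 of 9, with ratios of 0.61 to 1.09, and 6 intervals lay below 1. Gpx3 was higher in 9 of 9, with ratios of 1.03 to 1.72 and 9 intervals above 1, although its level over all fibroblasts was 0.98 of that at day 0. Txnrd1 was lower in 9 of 9, with ratios of 0.60 to 0.94 and 5 intervals below 1. Srxn1 was lower in 7 and higher in 2, and Prdx1 lower in 6 and higher in 3. Nqo1 was higher in 7 and lower in 2, with ratios of 0.87 to 1.73 and 4 intervals above 1. The ratios of Sod1 ran from 0.92 to 1.06 and had no interval apart from 1.

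Gpx3 varied most between kinds of fibroblast. The lining sub-cluster, led by Clic5, Htra4 and Prg4 (lubricin), had 7615 CPM at day 0 and 8410 CPM at day 5. Sub-cluster 6, which also held the osteoblast genes Ibsp and Bglap, had 7767 CPM at day 5, and the Pi16+ and Dpp4+ progenitor-like sub-cluster 4 had 2934 CPM. Sub-cluster 7, led by C2, F3 and Angpt2, had 130 CPM at day 0 and 223 CPM at day 5, with a Gpx3 UMI in 25.9% and 39.9% of its cells. Lining cells were thus among the richest in Gpx3, and sub-cluster 7 was the poorest. Sod1, by contrast, ran from 133 to 165 CPM at day 0 and from 129 to 160 CPM at day 5 over the 9 sub-clusters.

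Fibroblasts with 5 or more Saa3 UMIs were set apart, since Saa3 is an acute-phase gene of inflamed stroma. There were 377 of 8071 at day 5 and 7 of 5146 at day 0, too few for a level. The cut makes a range and not a cell type: 12 day 5 cells had 4 Saa3 UMIs and 10 had 5. Of the 377 cells, 326 lay in sub-cluster 8, and these were 20.9% of that sub-cluster. Deeper cells pass the cut more easily, and the median depth was 16568 UMIs above it and 9285 below it.

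All 3 dismutases differed across the cut at day 5, and not in 1 direction. Sod2 was at 621 CPM above the cut and 151 CPM below it, a ratio of 4.10 (3.96 to 4.24). Sod3 was at 853 and 340 CPM, a ratio of 2.51 (2.44 to 2.58), while Sod1 was at 118 and 145 CPM, a ratio of 0.82. A Sod2 UMI was found in 91.8% of the cells above the cut and 48.5% below it, or in 55.3% and 17.7% after thinning. For Sod3 the shares were 97.9% and 70.7%, or 70.3% and 35.4% after thinning. The differences in share thus held at equal depth.

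Among the peroxide genes, Txnrd1 was at 58.4 CPM above the cut and 34.9 CPM below it, a ratio of 1.67 (1.503 to 1.86). Prdx1 was at 619 and 450 CPM (ratio 1.38) and Srxn1 at 28.3 and 21.9 CPM (ratio 1.29, with 1.11 as the lower bound). Gpx3 was at 2760 and 3895 CPM, a ratio of 0.71, and Nqo1 at 4.66 and 8.45 CPM, a ratio of 0.55 (0.37 to 0.79). In count, 3 of the 8 genes with a ratio were at least 1.5-fold higher above the cut and 1 was lower, where 8.94% of 14706 genes were higher and 27.9% lower. The larger share of lower genes is a feature of this comparison as a whole. The leukocyte genes summed to 7.58 CPM above the cut and 23.7 CPM below it, and gave 844 CPM in the 258 cells of sub-cluster 7 at day 5, against 0.868 to 9.02 CPM in the other sub-clusters. Leaving out cells with a UMI of Ptprc, S100a8 or S100a9 was among the 13 processing alternatives for these ratios. Sod1, Sod2, Sod3 and Nqo1 kept their direction under all 13, and Gpx3, Prdx1, Txnrd1 and Srxn1 under 12. The part of leukocyte RNA in the remaining cells was not tested.

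In steps of Saa3 (0, 1 to 4, 5 to 19, and 20 or more UMIs, in 7220, 474, 95 and 282 cells), Sod2 was at 144, 238, 469 and 663 CPM. Sod3 was at 325, 521, 764 and 877 CPM, and Prdx1 at 445, 505, 591 and 627 CPM. These 3 were higher in each step. Gpx3 was at 3911, 3707, 2559 and 2816 CPM, and Sod1 at 146, 136, 128 and 116 CPM. Txnrd1 had 34.7, 38.1, 64.5 and 56.7 CPM, so its level did not follow the Saa3 count beyond the third step. Nqo1 had 8.46, 8.22, 9.31 and 3.36 CPM, with 14 and 18 UMIs in the last steps. It was thus not lower in cells with 5 to 19 Saa3 UMIs than in cells without Saa3.

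Inside sub-cluster 8 the cut separated fewer genes. Sod2 was at 672 CPM in the cells with 5 or more Saa3 UMIs and 410 CPM in the others, a ratio of 1.64 (1.58 to 1.70). For Sod3 the values were 913 and 777 CPM, a ratio of 1.18. Txnrd1, Prdx1 and Srxn1 had ratios of 0.96, 0.97 and 0.95. So Sod2 was higher in the Saa3-rich cells of this sub-cluster, and Txnrd1, Prdx1 and Srxn1 were close to level across the cut there. This split was chosen after the values were seen.

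**Figure D3:**
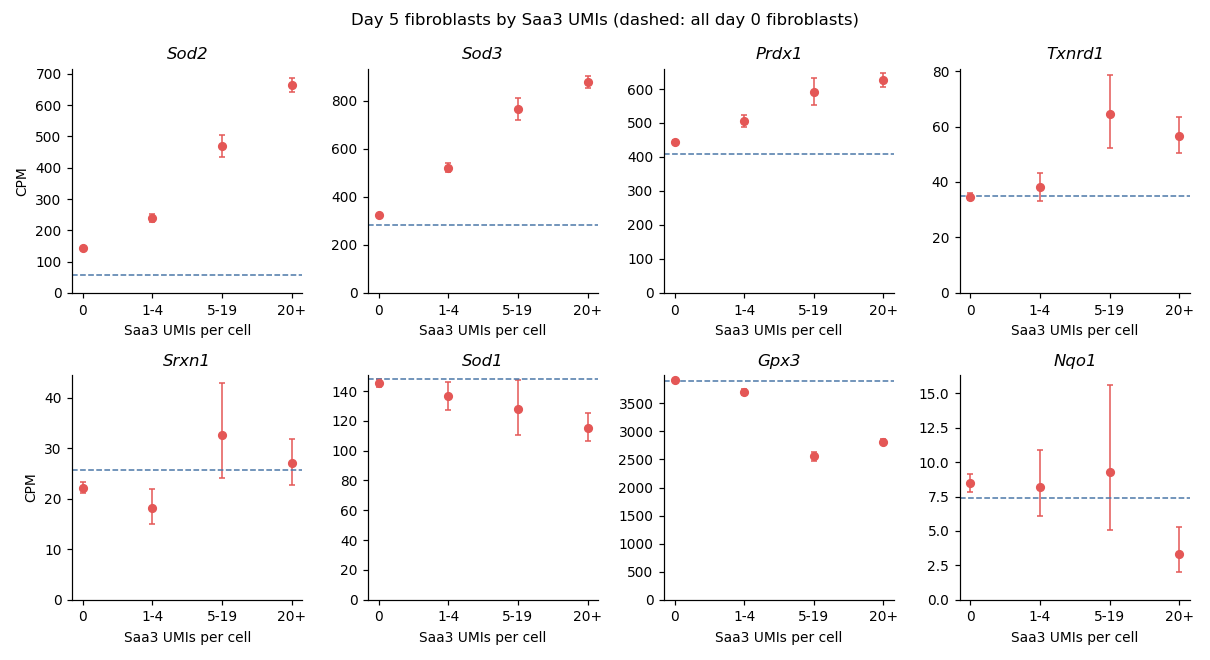
Levels (CPM with 95% counting intervals) of 8 genes in day 5 fibroblasts by the number of Saa3 UMIs in the cell (0, 1 to 4, 5 to 19, 20 or more); the dashed line is the level in all day 0 fibroblasts. Sod2 is at 144 CPM in cells without Saa3 and 663 CPM in those with 20 or more, and Gpx3 is lower in the 2 upper steps (2559 and 2816 CPM) than in cells without Saa3 (3911 CPM).

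Fibroblasts below the cut still had more Sod2 at day 5. Its day 0 and day 5 levels were 57.0 and 151 CPM, a ratio of 2.66. Sub-cluster 8 gave 1232 of these 7694 day 5 cells and 7581 of their 12032 Sod2 UMIs. For Sod3 the values were 282 and 340 CPM, a ratio of 1.20, and for Prdx1 the ratio was 1.10. As given above, the ratios outside sub-cluster 8 were 1.30 for Sod2 and 0.74 for Sod3. Below the Saa3 cut, with sub-cluster 8 kept, Gpx3 and Txnrd1 each had a ratio of 1.00. Of 8 genes with a ratio, 1 was at least 1.5-fold higher and 0 lower, where 10.0% of 15355 genes were higher and 7.01% lower.

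The 61 further genes of the pathway list, chosen for their role as oxidases, dismutase helpers, peroxide removers, thioredoxin partners or NRF2 and glutathione genes, were mostly within 1.5-fold by day. In fibroblasts 52 had a ratio, of which 5 were at least 1.5-fold higher and 3 lower, with a median log2 ratio of 0.05 against 0.01 over all genes. These counts are near the background of 10.3% higher and 7.68% lower, and the genes below are named by size alone. Glutathione reductase Gsr was at 20.8 and 33.9 CPM (ratio 1.63) and haem oxygenase Hmox1 at 15.8 and 24.7 CPM (ratio 1.56). Gclc, the catalytic subunit of the rate-limiting enzyme of glutathione synthesis, was at 90.2 and 43.8 CPM, 2.06-fold lower. Of the 13 peroxide-removal genes with a ratio, Gpx3, Prdx1 and Srxn1 among them, 0 passed 1.5-fold in fibroblasts, tenocytes or osteoblasts.

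In tenocytes 49 of the 61 had a ratio, with 7 higher and 3 lower and a median log2 ratio of 0.01, where 9.56% of all genes were higher and 8.87% lower. The thioredoxin-binding protein gene Txnip had a ratio of 2.63, the xanthine oxidoreductase gene Xdh 2.39, the peroxide-making oxidase Nox4 1.65 and Sesn1 1.54, while Gclc had 0.66. In osteoblasts 47 had a ratio, with 3 higher and 1 lower and a median of -0.01, where 7.89% of all genes were higher and 6.15% lower. The higher genes included the microsomal glutathione transferase Mgst1 (ratio 2.22) and Xdh (1.51). Across the Saa3 cut at day 5, 51 had a ratio, with 5 higher and 14 lower and a median log2 ratio of -0.05 against -0.19 over all genes, where 8.94% of all genes were higher and 27.9% lower. Gsr was at a ratio of 2.40. Txnip (0.25), Gsta4 (0.27), Gstm1 (0.29), catalase Cat (0.52) and Gclc (0.54) were lower above the cut. Gsta4 and Gstm1 are glutathione transferases. The share of lower list genes was near that of all genes.

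The oxidase genes were at or near 0 in the stroma. Cybb (chrX:9435252-9487771, minus strand) gave 4 UMIs in 2 of 5146 fibroblasts at day 0 and 11 UMIs in 6 of 8071 at day 5, and Ncf1 gave 0 and 3 UMIs. Tenocytes had 0 and 2 Cybb UMIs and 0 and 1 Ncf1 UMIs. A count of 0 in 1128 tenocytes allows a share of up to 0.266% of cells with a UMI. Ncf4 and Rac2 gave 0 to 12 UMIs per library in fibroblasts, tenocytes and osteoblasts. Cyba, which also partners other NADPH oxidases, was at 175 to 235 CPM in the 3 classes. Leukocyte genes summed to 3.78 and 22.4 CPM in fibroblasts at day 0 and day 5, with 844 CPM in sub-cluster 7 at day 5, where Cybb was at 0 and Ncf1 gave 1 UMI. Of the 11 Cybb UMIs of day 5 fibroblasts, 9 lay in sub-cluster 8. A UMI of a leukocyte gene was present in 0 of the 2 and 0 of the 6 fibroblasts with Cybb. It was present in 1 of the 3 day 5 fibroblasts with Ncf1. The part of leukocyte RNA in these few counts was not tested.

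Osteoblasts were the exception for Ncf1. They held 24 Ncf1 UMIs in 20 of 502 cells at day 0 and 21 UMIs in 15 of 585 cells at day 5, or 5.40 and 4.32 CPM, with a ratio of 0.80 (0.42 to 1.502). In cells thinned to 2000 UMIs the ratio was 1.80, so these few UMIs give no direction by day. Cybb was at 0 in both. Of these cells, 19 of 20 and 15 of 15 also had a UMI of Dmp1 or Ifitm5, genes of mature mineralizing osteoblasts, a split chosen after the values were seen. Among osteoblasts with Dmp1 or Ifitm5, 9.05% of 210 cells at day 0 and 5.70% of 263 at day 5 had an Ncf1 UMI. Among those without, 0.342% of 292 and 0 of 322 did, at median depths of 8667 UMIs at both days with these genes and 7099 and 5679 UMIs without. A UMI of a leukocyte gene was present in 1 of the 20 and 0 of the 15 cells with Ncf1. The leukocyte genes summed to 2.47 and 5.35 CPM in osteoblasts, with 6 and 4 of the 9 at 0. Ncf1 (chr5:134220053-134229625, minus strand) overlaps Gtf2ird2 on the other strand.

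In the myeloid library the 2 oxidase subunits did not rank the classes alike. Cybb was highest in the 77 neutrophil-named cells at 1520 CPM (1449 to 1593), followed by 290 monocytes at 1153 CPM (1104 to 1203) and 3439 macrophages at 541 CPM (531 to 551). It was at 316 CPM in 93 erythroid cells, 243 CPM in 540 dendritic cells and 195 CPM in 214 NK and T cells. Osteoclasts, the bone-resorbing relatives of macrophages, were last of these 7 classes with 33.9 CPM in 824 cells. Neighbours in this order had intervals that did not overlap. The neutrophil-named cluster was led by Camp, Ngp and Elane and held Mpo at 1796 CPM, genes of immature granulocytes, in a sort against Ly6G.

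Ncf1 was at 529 CPM in neutrophils, 363 CPM in macrophages, 218 CPM in erythroid cells, 154 CPM in monocytes, 101 CPM in dendritic cells, 67.5 CPM in NK and T cells and 6.23 CPM in osteoclasts. Monocytes had 2.13 times the Cybb of macrophages (2.03 to 2.23), and macrophages had 2.35 times the Ncf1 of monocytes (2.08 to 2.66). The Ncf1 ratio did not hold for each macrophage cluster: clusters 8 and 12, of 394 and 517 cells, had 153 and 189 CPM, near the monocyte level. The 25 mast cells and basophils were set apart by the pair: 19 had an Ncf1 UMI (506 CPM) and 1 had a Cybb UMI. Of the dendritic cells, a Ccr7+ and Fscn1+ cluster of 77 cells had 193 CPM of Ncf1 and 36.6 CPM of Cybb. Another cluster, of 165 cells led by Ccr7, had 86.6 CPM of Ncf1 and 237 CPM of Cybb, so cells with markers of migratory dendritic cells did not share 1 order of the pair. Without the mast cells and basophils, both subunits had their highest summed level in neutrophils, and the order below them differed. The Ncf1 interval of the mast cells and basophils, 376 to 667 CPM, spanned the neutrophil level. By share of cells with a Cybb UMI, monocytes (95.5%) stood above neutrophils (75.3%), and after thinning the shares were 85.3% and 68.6%.

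**Figure D4:**
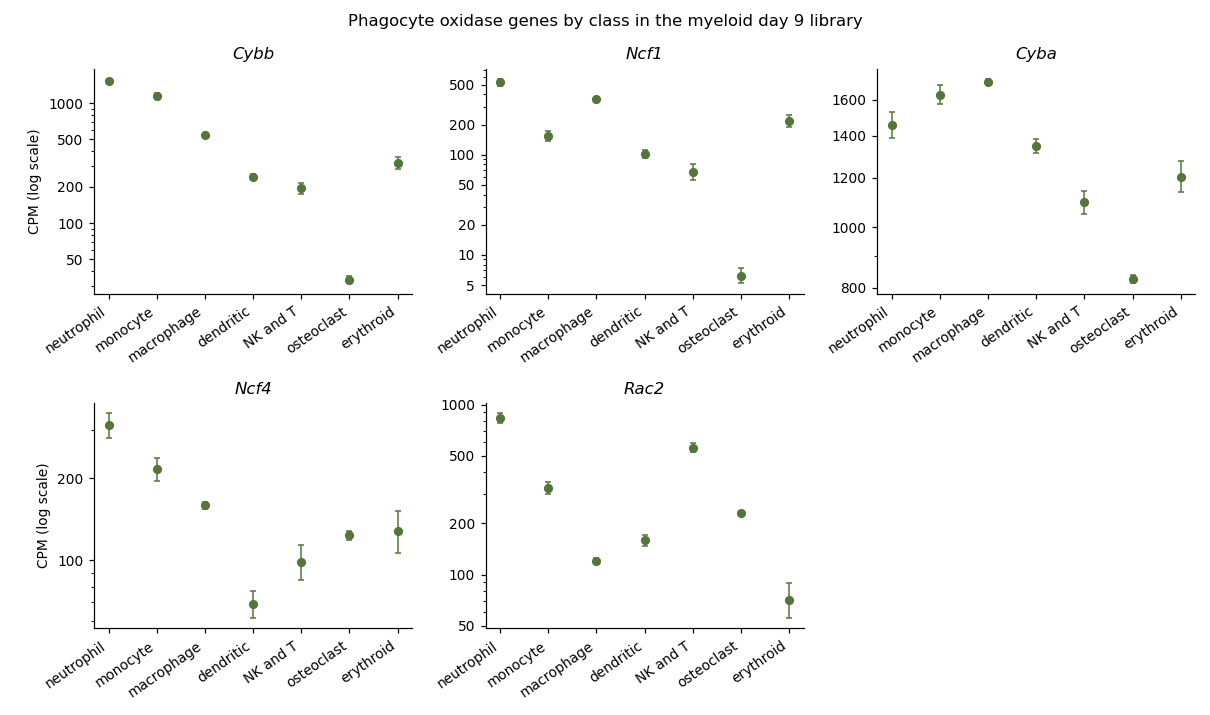
Levels (CPM, log axis, with 95% counting intervals) of Cybb, Ncf1, Cyba, Ncf4 and Rac2 in 7 classes of the myeloid day 9 library. Osteoclasts are lowest for Cybb (33.9 CPM) and Ncf1 (6.23 CPM) but not for Ncf4 (123 CPM) or Rac2 (231 CPM).

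Macrophage markers were measured in other classes too, and osteoclasts and dendritic cells are known to express some of them. The 8 markers, all detected in each class named here, summed to 11672 CPM in macrophages, 2925 CPM in erythroid cells, 2062 CPM in NK and T cells, 1720 CPM in osteoclasts, 1475 CPM in neutrophils and 1371 CPM in dendritic cells. Within the NK and T class, the Cybb UMIs all came from the T cell cluster (208 CPM), where the macrophage markers summed to 2187 CPM. The NK cell cluster had a Cybb UMI in 0 of 42 cells, which allows a share of up to 7.14%, and its macrophage markers summed to 208 CPM. The part of macrophage RNA in the Cybb and Ncf1 levels of erythroid, T and dendritic cells was not tested.

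Of Cybb, Ncf1, Cyba, Ncf4 and Rac2, the first pair differed most between macrophages and osteoclasts. Macrophages had 15.9 times the Cybb (14.8 to 17.3) and 58.3 times the Ncf1 (48.8 to 70.1) of osteoclasts, which were far deeper at a median of 22138 UMIs. These ratios depended on which cells entered: without doublet removal they were 12.98 and 20.7, and with a stricter cell filter 32.5 and 112. Within osteoclasts, cluster 4 had 59.6 CPM of Cybb and the more mature cluster 11, led by Mmp9, Ctsk and Acp5, had 9.28 CPM. Cyba, Ncf4 and Rac2 were not as low in osteoclasts. Cyba was at 826 CPM against 1710 CPM in macrophages, Ncf4 at 123 against 159 CPM and Rac2 at 231 against 121 CPM. Of the myeloid classes plotted by oxidase gene, Ncf4 (312 CPM) and Rac2 (836 CPM) were highest in neutrophils.

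Antioxidant genes gave another order. Sod2 was at 243 CPM in osteoclasts, 167 CPM in macrophages, 136 CPM in monocytes and 69.2 CPM in dendritic cells. Txnrd1 was also highest in osteoclasts, at 210 CPM in osteoclasts and 130 CPM in macrophages. Sod1 was highest in dendritic cells (568 CPM) and lowest in neutrophils (114 CPM), with 337 CPM in macrophages. Prdx1 was at 1107 CPM in macrophages, 594 CPM in monocytes, 575 CPM in osteoclasts and 123 CPM in neutrophils, so the class with the most Cybb and Ncf1 had the least Prdx1 of these 4. Srxn1 was at 41.4 CPM in macrophages, 37.5 CPM in osteoclasts and 3.48 CPM (4 UMIs) in neutrophils.

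Gpx3 and Sod3, which the stroma expressed, were scarce in myeloid cells, and Nqo1 was low in both sorts. Gpx3 was at 6.69 CPM in macrophages, with a UMI in 2.79% of them, at 26.6 CPM in monocytes and at 47.0 CPM in neutrophils. In the NK and T cells, which gave 2 UMIs, it was in 0.935% of cells. A cluster of 43 cells led by collagen genes in the same library had 1426 CPM. Sod3 had a UMI in 14 of 3439 macrophages and in 5 of 540 dendritic cells, of whose 27 UMIs 18 came from 1 cell. Nqo1 was at 1.29 CPM in macrophages and at 6.10 CPM (2.45 to 12.6, 7 UMIs) in neutrophils, where the 3 stromal classes had 5.70 to 8.15 CPM. In dendritic cells it was not detected in 540 cells.

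Among macrophage clusters, Cybb and Ncf1 peaked in other clusters than Prdx1, Txnrd1, Srxn1 and Sod2. Cluster 0, led by Spp1, Cxcl3 and Arg1, had the highest Prdx1 (2119 CPM), Txnrd1 (210 CPM), Srxn1 (78.2 CPM) and Sod2 (240 CPM) of the 8, and also the highest Cyba (2014 CPM). Cybb ran from 430 CPM in cluster 1, led by Mgl2 and Tppp3, to 757 CPM in cluster 7, led by Cd163, Pf4 and Lyve1. Cluster 7 had the lowest Txnrd1 (29.0 CPM). Ncf1 ran from 153 CPM in cluster 8, led by MHC class II genes, to 522 CPM in cluster 6, led by Vsig4 and Gpr34. Cluster 12, led by Thbs1 and Il1b, combined a high Cybb (733 CPM) with a low Ncf1 (189 CPM) and the lowest Prdx1 (430 CPM).

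Of these 6 genes, the spread between macrophage clusters was widest for Txnrd1, Prdx1 and Srxn1. The highest cluster had 7.24 times the lowest for Txnrd1, 4.93 times for Prdx1, 4.32 times for Srxn1 and 2.96 times for Sod2, against 1.76 times for Cybb and 3.41 times for Ncf1. Clusters were drawn from these same cells, so the spread is a description with no test.

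**Figure D5:**
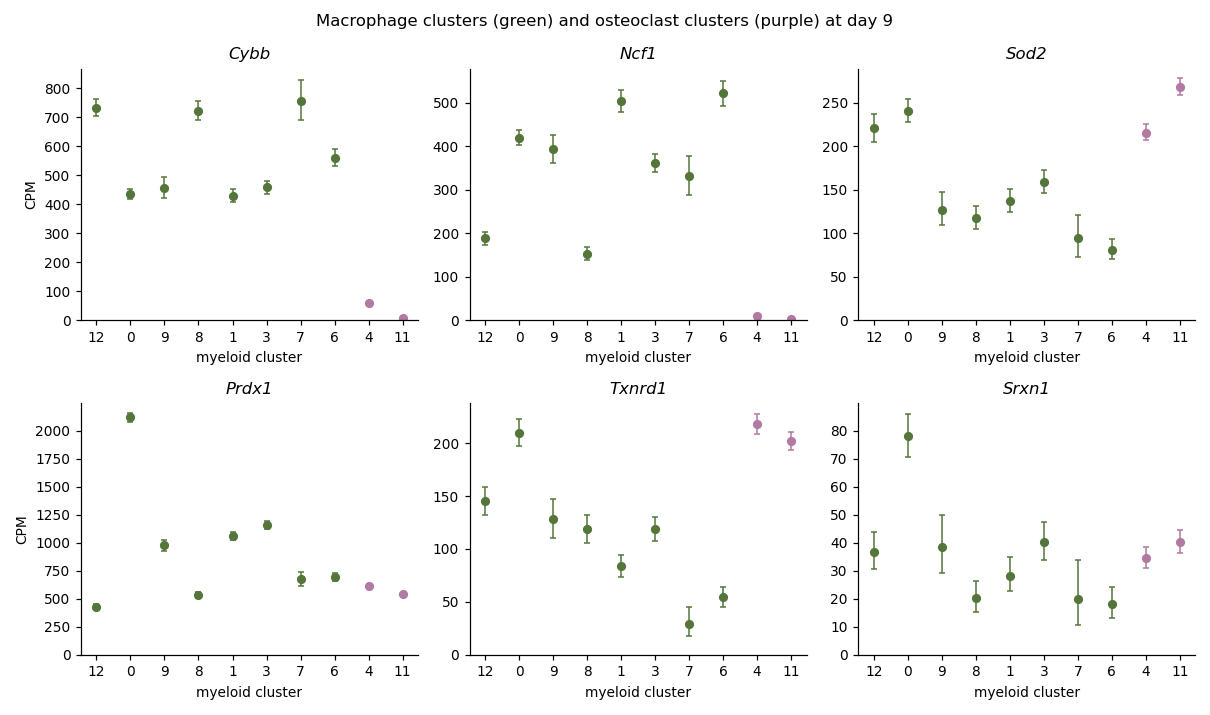
Levels (CPM with 95% counting intervals) of Cybb, Ncf1, Sod2, Prdx1, Txnrd1 and Srxn1 in 8 macrophage clusters (green) and 2 osteoclast clusters (purple) of the myeloid day 9 library. Prdx1 is highest in cluster 0 (2119 CPM) and lowest in cluster 12 (430 CPM), and Cybb is lowest in the osteoclast clusters 4 and 11 (59.6 and 9.28 CPM).

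From the list, the genes apart from the 10 with the widest spread between myeloid classes were Mpo, Mgst1, Gstm1, Hvcn1 and Sesn3. Mpo (myeloperoxidase) was at 1796 CPM in neutrophils and 1.96 CPM in macrophages. Mgst1 was at 320 CPM in monocytes and 1.59 CPM in osteoclasts. Hvcn1, the proton channel that supports the oxidase, was at 109 CPM in neutrophils, 52.2 CPM in macrophages and 2.21 CPM in monocytes, so the monocytes that were rich in Cybb held little of it. Gstm1 was at 245 CPM in neutrophils and 4.63 CPM in dendritic cells, and Sesn3 at 54.9 CPM in NK and T cells and 1.44 CPM in osteoclasts.

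Over 25 stromal classes by library and myeloid clusters, the genes most like Cybb among 6686 were Alox5ap (Pearson r = 0.98 on log2 CPM with 10 added), Lilrb4a (0.96), Lilr4b (0.96), Itgam (0.96) and Dck (0.96). For Gpx3 they were Cryab, Twist1, Hoxa10, Igsf10 and Zfhx4, each with r = 0.99. For Sod2 the values were lower: Eif4e and Tpi1 at 0.79, Slc37a2 and Aldoa at 0.77 and Tubb6 at 0.76. These are correlations across classes that share libraries and free RNA. They follow the stromal and myeloid sorts for Gpx3 and Cybb, and Sod2, found in both sorts, had no gene as close.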

How the data were processed

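The deposited values are UMI counts per gene and cell barcode, and per the file headers the authors ran Cell Ranger 6.0.1 to make them. Per the labels' protocols, the reference was the prebuilt 10x mouse set on mm10. Seurat 4.3.0 is named in the submitters' processing notes with no stated role. The values are whole numbers and not normalized. The 7740, 11900 and 7795 barcodes held 77842586, 122224428 and 69430907 UMIs. Barcodes under 500 genes, under 1000 UMIs or over 10% mitochondrial UMIs were dropped, leaving 7368, 11172 and 5945. Scrublet called 0, 0 and 1 doublets and was taken not to have worked, so 474, 1118 and 400 cells with the highest scores were removed, at 0.8% per 1000 barcodes. Doublets of like cells can remain.

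Scanpy 1.11.5 was used to cluster log-normalized counts (2000 variable genes, 30 principal components, 15 neighbours, Leiden resolution 1.0, and 0.5 within fibroblasts), with both stromal libraries together and the myeloid library alone. Names were given from marker lists, with at least 3 markers detected, and a class rests on RNA alone. Fibroblast (stromal) and macrophage (myeloid) were the default names, given where no other list qualified. UMIs were summed per class and library. CPM carry exact Poisson intervals, ratios exact conditional binomial intervals and shares Clopper-Pearson intervals, all at 95% and for counting error only. A ratio needed 20 UMIs over both groups and 100 cells per group, and a share at 0 was bounded with 3 counts. Thinning drew 2000 UMIs per cell. With 1 library in each group there is no test. The interval calculation was run on simulated Poisson counts with 200 changed genes. Such counts hold no variation between cells or libraries, so this checks the calculation only.

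The 10 genes and the list of 71 pathway genes were chosen with earlier results of these data known. All 10 are named for fibroblasts, tenocytes and osteoblasts by day and for the myeloid classes. Other comparisons name only some of them. List genes are named if at least 1.5-fold different with 20 CPM in the higher group, 5 in each direction at most, and the 5 with the widest myeloid spread and the 5 most like Sod2, Gpx3 and Cybb are named. The proteins of the dismutases were not used here. Gene positions are from GENCODE vM21 on mm10, and promoters from RefSeq on GRCm38.p6. DESeq2 1.42.0 and edgeR 4.0.16 served for alternative scale factors only.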

Additional observations from a re-analysis of the deposited data

Results flagged for a closer look

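The extracellular dismutase Sod3 went opposite ways by day in different stromal classes. The day 5 over day 0 ratio of its level was 1.35 in fibroblasts, 0.63 in tenocytes and 1.54 in osteoblasts. The osteoblast ratio was less firm: it ran from 0.94 to 1.67 over 12 processing alternatives and was above 1 in 11 of them. The secreted peroxidase Gpx3 had ratios of 0.98 in fibroblasts, 1.46 in tenocytes and 0.95 in osteoblasts. Each ratio compares 1 library with 1 library, and the differences between classes were not tested. For Sod3 in fibroblasts the ratio outside sub-cluster 8, a split chosen after the values were seen, was 0.74. What set the direction was not tested.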

How the results depend on the processing

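Sod2 was higher at day 5 in fibroblasts under all 15 alternatives (1.30 to 3.42), in tenocytes under all 13 (1.46 to 1.70) and in osteoblasts under all 12 (1.60 to 2.11). Tenocyte Sod3 was lower under all 13 (0.57 to 0.71). The ratio of Sod3 in osteoblasts reversed to 0.944 at resolution 0.5, and that of Txnrd1 across the Saa3 cut to 0.960 within sub-cluster 8. The count of genes at least 1.5-fold higher in fibroblasts was 2 without doublet removal, 0 with equal weight for sub-clusters, 3 with no count minimum and 0 without sub-cluster 8. In tenocytes it was 2 with a looser cell filter (200 genes, 500 UMIs, 20% mitochondrial), 0 with a stricter one (1000 genes, 2000 UMIs, 5%), 2 with the mean of each cell's CPM, 3 in thinned cells, 3 with no minimum and 2 in cluster 14 alone, and the lower count was 2 in thinned cells and 0 in cluster 0 alone. In osteoblasts it was 1 under both filters, at resolutions 0.5 and 2.0 and without the low-depth cluster, and the lower count was 1 with the mean of each cell's CPM. Across the Saa3 cut the higher count was 1 and the lower 0 within sub-cluster 8, and the lower 0 in thinned cells. Of the list genes, 3 were higher without sub-cluster 8 and 1 lower in thinned cells. The macrophage over osteoclast ratio of Cybb was 20.6 with the looser and 32.5 with the stricter filter, 12.98 without doublet removal, 43.7 at resolution 2.0, 10.4 with mean CPM and 10.4 in thinned cells, and that of Ncf1 112 with the stricter filter, 20.7 without doublet removal, 107 at resolution 2.0, 30.2 with mean CPM and 40.0 in thinned cells. The cause was not tested. The alternatives on single clusters, sub-clusters 6 and 8 and the split within sub-cluster 8 were chosen after seeing the data. No paired analysis was possible because each group is 1 library. The ratio of Ncf1 in osteoblasts, 0.80, ran from 0.627 to 1.80 (in thinned cells). Counts of 0 to 12 UMIs limit what can be said of Cybb, Ncf4 and Rac2 in fibroblasts, tenocytes and osteoblasts.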
